A study of Homo sapiens with 28 samples.

Results

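Histone genes were followed in 28 poly(A)-selected RNA-seq libraries made from HCT116 xenograft tumors and from cell cultures regrown from such tumors. Genes were taken by symbol: all genes of the HIST1 to HIST4 series, with pseudogenes left out, and the variant genes H2AFZ, H2AFX, H2AFY, H2AFV, H3F3A and H3F3B. A gene was kept where at least 3 libraries held at least 10 counts. Of 83 such genes, 20 were kept: 14 of 77 HIST genes and all 6 variant genes. The same count filter kept 15743 of the 58278 rows of the whole table. HCT116 is a human colorectal carcinoma line, here carrying Luciferase-GFP, and it was injected under the skin of male NOD SCID mice (NOD.CB17/AlhnRj-Prkdcscid, without functional T and B cells) at 5 weeks of age. The mice were given vehicle (Control, 3 tumors), Palbociclib (5 tumors), Telaglenestat (4 tumors) or both drugs (Combination, 4 tumors) by oral gavage for 23 days, and what remained of each tumor was sequenced. Palbociclib inhibits the cyclin-dependent kinases CDK4 and CDK6, and Telaglenestat, as the labels spell it (usually telaglenastat), inhibits glutaminase. The cultures were 12 lines grown without either drug from excised tumors, 3 for each of the same 4 treatments, and the sources used here do not say which tumor each line came from. All groups share 1 parental cell line, and the tumors also hold mouse tissue, so in these bulk samples fewer cells of a type and less RNA per cell cannot be told apart.

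Histones wrap DNA into nucleosomes, and a cell that copies its genome must also make new histones. The replication-dependent HIST genes serve this need: they are transcribed mainly in S phase, and their mRNA ends in a stem-loop in place of a poly(A) tail. The stem-loop is bound by SLBP, and a complex with the U7 small nuclear RNA cuts the transcript just after it. Some HIST genes also give a longer, polyadenylated mRNA when the cut is missed or in cells that have stopped dividing. Variant histones are encoded outside this system or, for H2AFX, by a gene that can make both kinds of mRNA. They are deposited into chromatin with or without replication, and apart from the stem-loop form of H2AFX their mRNAs carry poly(A) tails. Poly(A) selection therefore captures mRNAs that carry a tail, and it captures HIST and H2AFX mRNAs mainly in their polyadenylated form. Palbociclib holds cells before S phase through RB, and glutaminase feeds glutamine carbon and nitrogen into the tricarboxylic acid cycle and nucleotide synthesis.

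The stem-loop was searched for in the GENCODE 29 transcript models, which name the genes as the count table does, and it is printed here because it decides which mRNA a poly(A) library can hold. It has 16 bases, 6 on each side of a loop of 4 bases that is set in capitals.
HIST1H2AC, HIST1H2BN, HIST1H3H, HIST2H2AA3, HIST2H2BE, HIST3H2A: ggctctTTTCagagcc
HIST1H2AG: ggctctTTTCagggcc
HIST1H2BD: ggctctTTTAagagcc
HIST1H3E: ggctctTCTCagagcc
HIST1H4I, HIST2H4A, HIST2H4B: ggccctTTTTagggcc
H2AFX: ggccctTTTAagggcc
The stems of the H4 genes and of H2AFX begin with the same 6 letters, and those of the other H2A, H2B and H3 genes share another 6. Of the 14 kept HIST genes, 12 had a stem-loop in a model, and in 10 of these a model ran on for at least 100 bases past it, with 1862 bases in HIST1H3E, 1761 in HIST1H2AG, 1729 in HIST2H2BE and 1128 in HIST1H2AC. The models of HIST1H1C and HIST1H2BK, of 642 and 381 bases, held no stem-loop. Both stop at the end of the coding sequence, so a stem-loop past it could not be found. A poly(A) signal near the transcript end was present in 11 of the 14. Of 61 HIST genes that were not kept and have a model, 22 had a stem-loop, 14 a model that continued for at least 100 bases and 14 a poly(A) signal, although many of these models stop at the end of the coding sequence. H2AFX was the single variant gene with a stem-loop, 1044 bases before the end of its longer model, and all 6 variant genes had a poly(A) signal.

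The 20 kept genes together held between 0.155% and 0.278% of all counts in a library, with a median of 0.206%. Nearly all of this came from the 6 variant genes, and the 77 HIST genes made up 1.55% to 3.20% of the histone counts of a tumor and 0.722% to 1.30% of those of a culture. Summed over all 77, HIST genes reached 31.9 to 56.1 counts-per-million (CPM, here of the unscaled library total) in tumors, with a median of 42.8, and 15.9 to 29.1 in cultures, with a median of 21.0, so the range of the tumors lay above that of the cultures. Of the 63 HIST genes not kept, 20 had no count in any library, which allows each up to 0.0130 CPM (3 counts over all 28 libraries, counting error only). None of the 63 exceeded 9 counts in any library, the value reached by HIST1H2BJ, HIST2H2BF and HIST3H2BB, 3 genes for H2B. Just inside the filter were HIST1H3H, with 3 libraries at 10 or more counts and at most 13, HIST1H4I, with 4 and at most 10, HIST2H2AA3, with 4 and at most 19, and HIST1H2AG, with 6 and at most 20. By class, 1 of 6 H1 genes, 4 of 17 H2A genes, 4 of 23 H2B genes, 2 of 16 H3 genes and 3 of 15 H4 genes were kept.

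**Figure D1:**
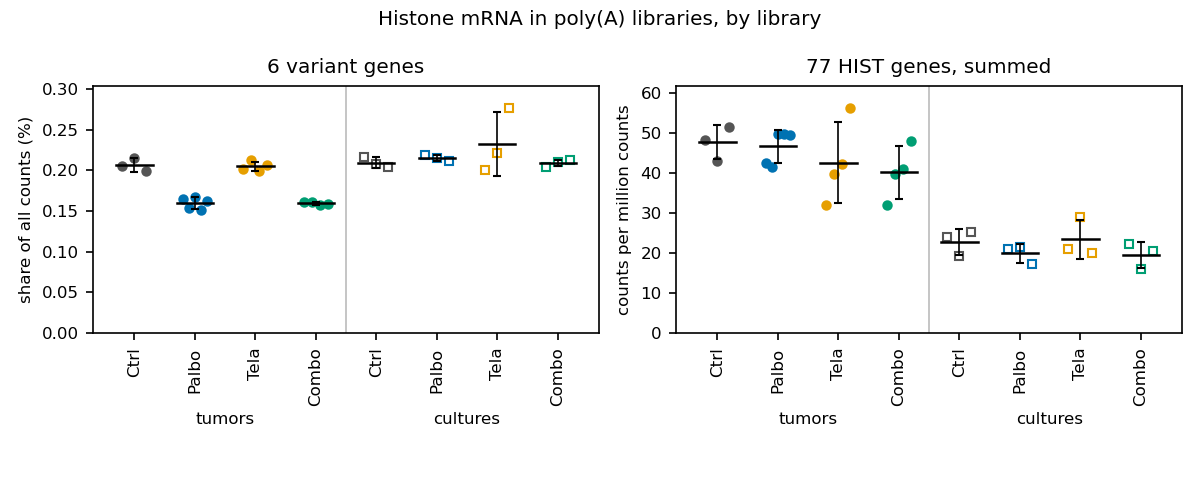
Share of all counts held by the 6 variant histone genes (left, percent) and summed CPM of all 77 HIST genes (right, of the unscaled library total), for each library. Filled circles are tumors and open squares cultures, in the groups Control (Ctrl), Palbociclib (Palbo), Telaglenestat (Tela) and Combination (Combo). Horizontal lines are means and error bars SD. The variant share is lowest in Palbociclib and Combination tumors, and the HIST sum is higher in every tumor than in any culture.

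Per kilobase of exon and over all 28 libraries, the variant genes stood highest. H2AFZ had a median of 155 CPM per kilobase, H3F3B 126 and H3F3A 121, and the ranges of these 3 over libraries overlapped. H2AFV followed at 38.1, and its highest library, at 48.2, lay below the lowest of H3F3A, at 89.6. H2AFX at 11.5 and H2AFY at 11.2 came next. Exon length was the union over all models of a gene, 17730 bases for H2AFY against 1614 for H2AFX. Genes with many models therefore stand lower in this order than by CPM, H2AFY above all. The highest HIST gene was HIST1H2AC at 5.72, followed by HIST1H2BD at 4.29 and HIST1H1C at 3.57, and the lowest kept gene was HIST2H4A at 0.224. From H2AFV downward each gene's range over libraries overlapped that of the next in this order. The shared stretches of these genes limit how well reads can be placed. HIST2H4A and HIST2H4B share 100% of the 60-base windows of their models with each other, and HIST2H2AA3 shares 100% with HIST2H2AA4. For HIST1H2BK the shared part was 66.5%, for H2AFY 29.6%, for H3F3A 12.4%, for H2AFZ 9.28%, for H3F3B 6.85% and for H2AFX 0. H3F3B also overlaps UNK on the opposite strand, and whether the counting used strand is not given in the sources used here.

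Libraries held 6273834 to 10617936 counts in tumors and 7198540 to 13815675 in cultures. Replicates of every group differed by more than sampling noise, so no library was a repeat of another. Composition differed between the tumor groups in ways that touch the results below. The slope of a library's log2 CPM on gene GC content, per SD of GC, was 0.253 ± 0.0064 in Control tumors (SD, n = 3), 0.284 ± 0.11 with Palbociclib (n = 5), -0.337 ± 0.036 with Telaglenestat (n = 4) and -0.208 ± 0.055 with Combination (n = 4). A list of 18 RNAs without a poly(A) tail, of which RN7SL1, RN7SL2 and RN7SK held most counts, summed to 56.5 to 61.9 CPM in Control tumors, 31.5 to 249.8 with Palbociclib, 11.1 to 29.9 with Telaglenestat and 7.30 to 25.1 with Combination. The 12 markers of stroma, vessels and blood, counted on human genes, summed to 184 to 229 CPM in Control tumors, 145 to 235 with Palbociclib, 56.3 to 68.5 with Telaglenestat, 110 to 161 with Combination and 3.78 to 13.1 in cultures, with CDH5 at 0 in every library, LUM at 0 in every tumor and PTPRC and PECAM1 at no more than 0.331 and 0.515 CPM. All 6 epithelial markers were found in every library, with EPCAM at 381 to 549 CPM in tumors and 305 to 485 in cultures, and their sum was 2890 to 3428 CPM in Control tumors, 3151 to 4408 with Palbociclib, 1529 to 1753 with Telaglenestat and 2316 to 2555 with Combination. Each treatment result is therefore given as deposited and, where it differs, after a correction of each library for gene GC content and length. The part of these marker and non-tailed RNA differences in the results was not tested.

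In Palbociclib tumors 5 of the 6 variant genes were lower, and H2AFY was not called. Of 16 kept histone genes tested, 5 fell against Control and none rose, where 6.15% of all 14848 genes tested changed, 3.6% downward and 2.55% upward. The 5 were H2AFZ, H2AFV, H2AFX, H3F3A and H3F3B, all of them variants, and the median log2 change over the 16 was -0.17 against 0.00066 over all genes.

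H2AFZ and H2AFV encode the forms of H2A.Z, a variant of H2A found at promoters and enhancers. H2AFZ stood at 376, 430 and 388 CPM in Control tumors and at 289, 252, 290, 254 and 271 with Palbociclib, so every treated tumor lay below every Control tumor. This was a log2 change of -0.55 ± 0.069 (SE; edgeR's quasi-likelihood test, Benjamini-Hochberg adjusted p = 3.67e-05). H2AFV stood at 156, 161 and 155 CPM in Control and at 114, 110, 116, 99.1 and 117 with Palbociclib, again without overlap (log2 change -0.50 ± 0.072, adjusted p = 0.000148).

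H2AFX encodes H2AX, whose phosphorylated form marks DNA breaks. Its level was 21.8, 21.2 and 24.1 CPM in Control tumors and 16.6, 10.2, 13.6, 8.28 and 9.28 with Palbociclib, a log2 change of -0.93 ± 0.18 (adjusted p = 0.0022). It showed the largest fall of the 5, and the treated tumors spread widely yet all lay below Control. H3F3A and H3F3B encode the same protein, H3.3, which is laid down outside replication. H3F3A went from 403, 443 and 422 CPM to 344, 395, 355, 304 and 334 (log2 change -0.29 ± 0.071, adjusted p = 0.0167). H3F3B went from 772, 827 and 730 CPM to 678, 664, 686, 632 and 666 (log2 change -0.22 ± 0.063, adjusted p = 0.0388), without overlap for either gene. These were the least certain of the 5. The H3F3A call was lost without Control tumor 2 (-0.25, adjusted p = 0.113) or 3 (-0.29, 0.0662), and the H3F3B call without Control tumor 1 (-0.23, 0.113) or 2 (-0.18, 0.23) or Palbociclib tumor 4 (-0.21, 0.0881) or 5 (-0.22, 0.0668). H2AFY, for the large macroH2A1, was at 211 to 223 CPM in Control and 189 to 211 with Palbociclib and did not pass the test (log2 change -0.08 ± 0.062, adjusted p = 0.534). All 5 calls held after the GC and length correction, under which 7.72% of all genes were called, 4% lower and 3.72% higher, with H2AFX at -1.02 ± 0.19 (adjusted p = 0.00158) and H2AFZ at -0.56 ± 0.069 (adjusted p = 2.76e-05). H2AFZ, H2AFV and H2AFX also stayed called under every other setting tried. H3F3A and H3F3B were not called with all 28 libraries in 1 fit (adjusted p = 0.0876 and 0.222), with the compared groups only (0.0795 and 0.0994), with the replicate block (0.0647 and 0.0946) or with block and correction together (0.0537 and 0.0722), and H3F3B also not with DESeq2's size factors (0.0573) or without the filter on low counts (0.204).

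**Figure D2:**
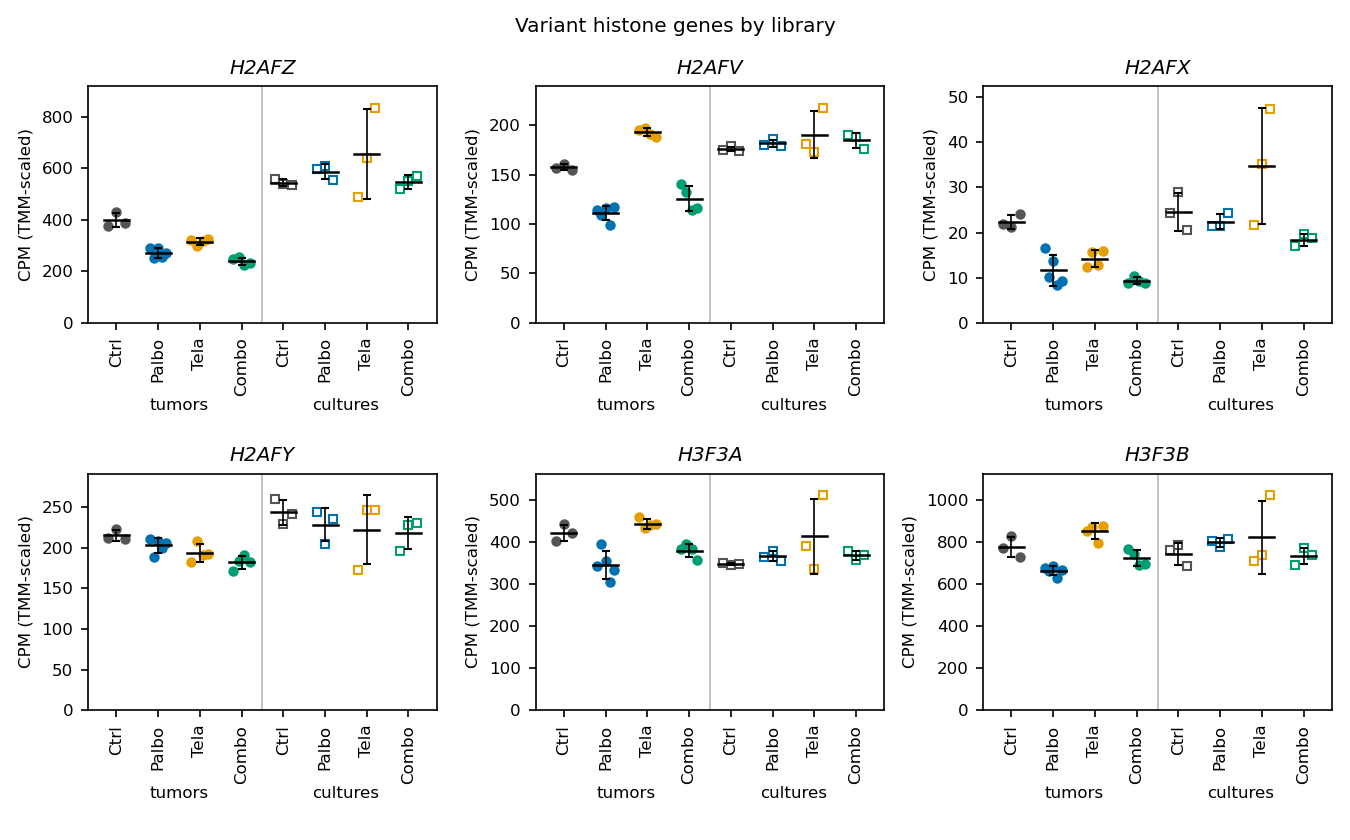
CPM of the 6 variant histone genes in each library, scaled (TMM) within tumors and within cultures separately. Filled circles are tumors and open squares cultures, in the groups Control (Ctrl), Palbociclib (Palbo), Telaglenestat (Tela) and Combination (Combo), with lines at the mean and error bars of 1 SD. H2AFZ is lower in all treated tumors than in Control tumors, while H2AFV is lower with Palbociclib and higher with Telaglenestat.

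In Telaglenestat tumors the histone genes went both ways. As deposited, 4 of the 16 tested fell and 1 rose, where 51.1% of all genes tested changed, 28.5% downward and 22.6% upward. The 4 that fell were H2AFZ, H2AFX, HIST1H1C and HIST3H2A, and the 1 that rose was H2AFV. The share of histone genes called, 5 of 16, was below that of all genes.

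H2AFZ stood at 321, 297, 319 and 326 CPM with Telaglenestat, below the 376 to 430 of Control (log2 change -0.34 ± 0.073, adjusted p = 0.000704), and the fall held after the GC and length correction (-0.30 ± 0.072, adjusted p = 0.00684). H2AFV stood at 195, 197, 191 and 188 CPM, above the 155 to 161 of Control (0.29 ± 0.076, adjusted p = 0.00306), but the corrected change was 0.029 ± 0.072 (adjusted p = 0.853). The H2A.Z genes thus moved in opposite directions as deposited, and of these changes the fall of H2AFZ alone remained called after correction. H2AFX stood at 12.3, 15.7, 12.9 and 15.9 CPM, below all Control tumors (-0.65 ± 0.19, adjusted p = 0.00687). With 66.4% GC against a median of 48.0% over all genes tested, H2AFX lay where the GC slope acts most, and its corrected change was 0.98 ± 0.21 (adjusted p = 0.00234), which passed the test in the other direction. The direction of H2AFX with Telaglenestat therefore depends on the correction.

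The other variants were not called as deposited: H3F3A stood at 434 to 461 CPM (0.07 ± 0.075, adjusted p = 0.436), H3F3B at 797 to 879 CPM (0.13 ± 0.067, adjusted p = 0.103) and H2AFY at 183 to 208 CPM (-0.15 ± 0.065, adjusted p = 0.0528). After correction all 3 passed: H3F3A at -0.24 ± 0.059 (adjusted p = 0.00651), H3F3B at 0.27 ± 0.066 (adjusted p = 0.00664) and H2AFY at -0.43 ± 0.073 (adjusted p = 0.000375). With the correction 5 of the 16 were called, 3 lower and 2 higher, where 14.7% of all genes were called, 8.4% lower and 6.33% higher. Scaling all 28 libraries together in place of the tumors alone raised every Telaglenestat against Control change by 0.11 and every Combination against Control change by 0.10 on the log2 scale. With all 28 libraries in 1 fit, H2AFZ with Telaglenestat was at -0.23 and not called (adjusted p = 0.0916).

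With the Combination, 5 of the 16 fell and 1 rose as deposited, where 44.5% of all genes changed, 26.9% lower and 17.6% higher. Those that fell were H2AFZ, H2AFX, H2AFV, H2AFY and HIST1H1C, and HIST1H2AC rose. The median log2 change over the 16 was -0.41, against -0.036 over all genes. After the GC and length correction 5 fell and none rose, where 13.1% of all genes were lower and 13.3% higher. Those 5 were H2AFZ, H2AFV, H2AFY, H3F3A and HIST1H3E.

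H2AFZ was lowest here, at 247, 254, 222 and 233 CPM (log2 change -0.74 ± 0.073, adjusted p = 1.96e-07), and the corrected change was -0.77 ± 0.073 (adjusted p = 4.38e-07). H2AFV stood at 140, 132, 114 and 116 CPM, below all Control tumors (-0.33 ± 0.076, adjusted p = 0.00161; corrected -0.51 ± 0.072, adjusted p = 2.78e-05). H2AFY stood at 171, 184, 191 and 183 CPM against 212, 223 and 211 in Control (-0.24 ± 0.065, adjusted p = 0.00496; corrected -0.37 ± 0.074, adjusted p = 0.000918). The H2AFY call was lost with all 28 libraries in 1 fit (-0.14, adjusted p = 0.26) and without the filter on low counts (-0.20, adjusted p = 0.114). H2AFX stood at 8.87, 10.4, 9.21 and 8.76 CPM, the tightest of its groups (-1.26 ± 0.19, adjusted p = 2.77e-05), and its corrected change was -0.0075 ± 0.21 (adjusted p = 0.985). H3F3A, at 358 to 396 CPM, missed the threshold as deposited (-0.15 ± 0.075, adjusted p = 0.107) and passed it after correction (-0.39 ± 0.059, adjusted p = 6.2e-05), and H3F3B stood at 690 to 769 CPM (-0.10 ± 0.066, adjusted p = 0.231; corrected 0.015 ± 0.065, adjusted p = 0.892).

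Against the single agents, the Combination differed as follows. Against Telaglenestat, 5 variants were lower and no histone gene was higher, where 18.8% of all genes changed, 9.89% lower and 8.93% higher. These were H2AFV (-0.62 ± 0.071, adjusted p = 4.85e-06), H2AFZ (-0.40 ± 0.068, adjusted p = 0.000354), H3F3B (-0.23 ± 0.062, adjusted p = 0.0111), H3F3A (-0.23 ± 0.070, adjusted p = 0.0282) and H2AFX (-0.61 ± 0.19, adjusted p = 0.0292). The H2AFX call was lost without Telaglenestat tumor 2 or 4 or Combination tumor 1, 3 or 4 (-0.55 to -0.59, adjusted p = 0.0624 to 0.0817), and the H3F3A call without Telaglenestat tumor 1 or 4 or Combination tumor 1, 3 or 4 (-0.19 to -0.23, adjusted p = 0.0518 to 0.0942). After correction 4 histone genes were lower and none was higher, where 15.7% of all genes were called, 7.21% lower and 8.49% higher. H2AFX remained lower (-0.99 ± 0.21, adjusted p = 0.00214), and H3F3A did not pass (-0.14 ± 0.055, adjusted p = 0.085).

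Against Palbociclib, 4 histone genes were lower and 3 higher, where 47.6% of all genes changed, 27.5% lower and 20.1% higher. The lower ones were HIST1H2BK (-2.33 ± 0.70, adjusted p = 0.00957), HIST1H1C (-1.20 ± 0.38, adjusted p = 0.0141), H2AFZ (-0.18 ± 0.065, adjusted p = 0.0251) and H2AFY (-0.16 ± 0.058, adjusted p = 0.0306). The higher ones were HIST1H2AC (0.52 ± 0.19, adjusted p = 0.028), HIST1H2BN (0.99 ± 0.36, adjusted p = 0.0302) and H2AFV (0.18 ± 0.068, adjusted p = 0.0363). HIST1H2BK was the 1 gene of the 7 that stayed called without any single tumor. HIST1H1C was lost without Combination tumor 3 (-0.96, adjusted p = 0.0534), H2AFZ without Palbociclib tumor 1 or 3 or Combination tumor 3 or 4 (-0.15 to -0.17, adjusted p = 0.0566 to 0.0857) and H2AFY without Palbociclib tumor 1, 3 or 5 or Combination tumor 1, 2 or 4 (-0.12 to -0.16, adjusted p = 0.0514 to 0.109). HIST1H2AC was lost without Palbociclib tumor 1 or 4 or Combination tumor 3 or 4 (0.37 to 0.52, adjusted p = 0.0527 to 0.14), HIST1H2BN without Palbociclib tumor 1, 3 or 5 or Combination tumor 2 or 3 (0.65 to 0.97, adjusted p = 0.0564 to 0.176) and H2AFV without Palbociclib tumor 4 or Combination tumor 1 or 2 (0.13 to 0.15, adjusted p = 0.102 to 0.145). After the GC and length correction 4 genes were called, where 15.3% of all genes were, 7.97% lower and 7.35% higher: H2AFZ (-0.21 ± 0.065, adjusted p = 0.0317), H2AFY (-0.29 ± 0.065, adjusted p = 0.00444), H3F3B (0.25 ± 0.057, adjusted p = 0.00486) and H2AFX (1.02 ± 0.20, adjusted p = 0.00106), the last of which was -0.33 ± 0.18 as deposited (adjusted p = 0.143).

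No histone gene departed from the sum of both single-agent log2 changes by edgeR's test, which called 0.0673% of all genes, or by DESeq2, which called 0.586%. At an unadjusted p under 0.05 there was 1 by each tool, in edgeR HIST2H4A, a gene whose reads cannot be told from those of its copy.

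The promoters of the variants with the largest changes, and of the HIST gene with the highest level, are shown because histone promoters are known for CCAAT boxes, the sites of the factor NF-Y. Each is the 250 bases before the RefSeq start on the coding strand in GRCh38.p14, with CCAAT, and its reverse complement ATTGG, in capitals.
H2AFZ, chr4:99950276-99950525, minus strand: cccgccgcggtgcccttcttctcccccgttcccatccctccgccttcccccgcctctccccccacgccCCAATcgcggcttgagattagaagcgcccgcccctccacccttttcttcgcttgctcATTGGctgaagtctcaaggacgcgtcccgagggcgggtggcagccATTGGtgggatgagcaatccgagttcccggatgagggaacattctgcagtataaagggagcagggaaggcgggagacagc
H2AFV, chr7:44848088-44848337, minus strand: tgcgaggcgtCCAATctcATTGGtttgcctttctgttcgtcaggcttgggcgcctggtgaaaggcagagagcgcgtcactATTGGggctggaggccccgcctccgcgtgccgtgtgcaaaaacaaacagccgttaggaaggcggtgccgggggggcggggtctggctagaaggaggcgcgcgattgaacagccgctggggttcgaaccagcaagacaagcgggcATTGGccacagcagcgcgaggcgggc
H2AFX, chr11:119095466-119095715, minus strand: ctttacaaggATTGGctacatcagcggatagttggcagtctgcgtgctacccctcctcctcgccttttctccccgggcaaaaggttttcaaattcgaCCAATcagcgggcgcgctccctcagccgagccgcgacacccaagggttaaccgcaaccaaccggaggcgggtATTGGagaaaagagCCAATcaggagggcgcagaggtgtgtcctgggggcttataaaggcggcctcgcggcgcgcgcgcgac
HIST1H2AC, chr6:26123922-26124171, plus strand: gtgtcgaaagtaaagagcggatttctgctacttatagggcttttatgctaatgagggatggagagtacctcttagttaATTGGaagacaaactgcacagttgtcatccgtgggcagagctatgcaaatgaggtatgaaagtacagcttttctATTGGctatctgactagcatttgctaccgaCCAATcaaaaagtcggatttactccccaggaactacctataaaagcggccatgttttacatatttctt
H2AFZ and HIST1H2AC held 3 matches each, and H2AFV and H2AFX 4 each. In windows of 300 bases that also take in 50 bases after the start, searched on both strands, 5 of the 6 variant genes held CCAAT, with H2AFY as the exception. It was in 12 of the 14 kept HIST genes, all but HIST2H4A and HIST2H4B, in 40 of 48 HIST genes that were not kept and have a RefSeq promoter, and in 34.6% of all 35116 promoters. TATAAA was in 8 of the 14, in 3 of the 6 variants and in 11.5% of all promoters. TTTGAA was in 3, 2 and 15.2%, and TTTNNCGC, a form of the E2F site, in 4, 1 and 6.89%. H2AFZ and H2AFV both held CCAAT, and H2AFZ alone of the pair held TATAAA. Whether any of these motifs bears on the changes in level was not tested.

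HIST genes lay far lower than most variants, and few passed the test. HIST1H1C, the linker histone H1.2, was the kept H1 gene. It stood at 6.38, 4.86 and 5.28 CPM in Control tumors and at 4.24, 3.02, 6.11, 5.48 and 4.72 with Palbociclib. With Telaglenestat it stood at 0.607, 2.09, 0.757 and 2.08, and with Combination at 1.43, 3.87, 0.992 and 1.93. The Palbociclib tumors overlapped Control (log2 change -0.22 ± 0.37, adjusted p = 0.838), whereas the Telaglenestat tumors (-1.97 ± 0.43, adjusted p = 0.000812) and the Combination tumors (-1.42 ± 0.42, adjusted p = 0.00902) all lay below it. These rest on 4 to 26 counts in each Telaglenestat or Combination library. After the GC and length correction the changes were -1.05 ± 0.42 (adjusted p = 0.109) and -0.82 ± 0.41 (adjusted p = 0.15), and neither was called.

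Among H2A genes, HIST1H2AC stood at 11.1, 8.94 and 11.1 CPM in Control tumors and at 10.3 to 13.0 with Palbociclib (log2 change 0.19 ± 0.21, adjusted p = 0.736). It stood at 9.40, 12.6, 15.8 and 21.2 with Telaglenestat, which overlapped Control (0.51 ± 0.22, adjusted p = 0.0595), and at 14.3, 14.3, 17.0 and 22.1 with Combination, which did not (0.71 ± 0.22, adjusted p = 0.0126). The Combination call was lost without Control tumor 2 (0.61, adjusted p = 0.0645) or Combination tumor 4 (0.55, adjusted p = 0.0538), and after correction (0.46 ± 0.22, adjusted p = 0.13). HIST3H2A stood at 3.02, 4.20 and 5.41 CPM in Control, at 2.62 to 5.37 with Palbociclib (-0.069 ± 0.34, adjusted p = 0.954) and at 2.27, 2.64, 1.67 and 1.78 with Telaglenestat, below every Control tumor (-0.997 ± 0.37, adjusted p = 0.0306). With Combination it stood at 0.951, 2.98, 2.13 and 3.41, which overlapped Control (-0.82 ± 0.37, adjusted p = 0.0784). The Telaglenestat call was lost without Control tumor 2 (-0.9996, adjusted p = 0.0645) or 3 (-0.78, 0.139) or Telaglenestat tumor 3 (-0.90, 0.0733) or 4 (-0.93, 0.0681), and the corrected change was -0.062 ± 0.34 (adjusted p = 0.938). HIST1H2AG, at 0 to 1.75 CPM over all libraries, was too low to be tested within tumors. So was HIST2H2AA3, which held 11, 8 and 10 counts in Control tumors, 3 to 19 with Palbociclib, 1 to 5 with Telaglenestat and 0 to 5 with Combination, and its copy HIST2H2AA4 was at 0 in every tumor. HIST2H2AA3 passed the count filter only through Control tumors 1 and 3 and Palbociclib tumors 1 and 3. Its lower counts in the other groups are therefore no separate result.

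Among H2B genes, HIST1H2BD stood at 4.82, 5.74 and 5.28 CPM in Control and at 3.17, 4.02, 3.83 and 3.86 with Combination, lower in all 4 but not past the threshold (log2 change -0.50 ± 0.26, adjusted p = 0.126). HIST2H2BE stood at 1.42 to 2.13 CPM in Control, 1.32 to 3.00 with Palbociclib, 1.39 to 4.16 with Telaglenestat and 1.64 to 2.52 with Combination, and was not called in any tumor comparison. HIST1H2BN was at 1.34 to 2.70 in Control, 1.18 to 1.84 with Palbociclib, 1.97 to 3.27 with Telaglenestat and 1.74 to 4.82 with Combination. HIST1H2BK stood at 1.90, 0.994 and 2.70 CPM in Control and at 2.07, 0.918, 3.43, 2.35 and 4.72 with Palbociclib. It stood at 0.607, 0, 1.06 and 0.742 in Telaglenestat tumors, which overlapped Control (-1.61 ± 0.76, adjusted p = 0.081), and stood at 0.317, 0.894, 0.850 and 0 in Combination tumors, below Control and Palbociclib alike (against Control -1.81 ± 0.77, adjusted p = 0.0623). These values rest on at most 7 counts a library in the last 2 groups, and a part of this gene's reads also matches other genes. No library of those 2 groups reached the 10 counts of the filter, so the gene was kept through other groups. Its lower counts in those 2 groups are therefore no separate result.

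Of the H3 genes, HIST1H3E stood at 5.82, 5.96 and 6.05 CPM in Control, at 3.21 to 7.55 with Palbociclib and at 4.73 to 7.13 with Telaglenestat. With Combination it stood at 3.64, 5.36, 3.54 and 3.56, below each Control tumor, and was called after correction (-0.77 ± 0.26, adjusted p = 0.0363) but not as deposited (-0.56 ± 0.27, adjusted p = 0.102). HIST1H3H, at 0 to 1.65 CPM, was not tested.

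The H4 genes HIST2H4A and HIST2H4B are 2 copies with the same sequence, and their counts cannot be read apart. In 16 of 28 libraries 1 of the copies was at 0 while the other was not, and in 20 more than 80% of the pair's counts fell on 1 copy. In Control tumors HIST2H4A held 22, 15 and 16 counts and HIST2H4B 1, 0 and 9, whereas in the Palbociclib tumors HIST2H4B held 14 to 28 and HIST2H4A 0 to 11. Taken singly the copies did not overlap between these groups in opposite directions, while the sum of both stood at 1.70 to 3.32 unscaled CPM in Control and 2.23 to 3.61 with Palbociclib. Tested as a sum, the pair differed little from Control: 0.098 ± 0.40 with Palbociclib (adjusted p = 0.947), 0.0091 ± 0.43 with Telaglenestat (adjusted p = 0.988) and -0.075 ± 0.43 with Combination (adjusted p = 0.904). HIST1H4I, at 0.0942 to 1.58 CPM in tumors, was not tested.

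Seen across the 3 tumor comparisons with Control, H2AFZ was the histone gene that was lower with each treatment both as deposited and after correction. H2AFV was lower with Palbociclib and Combination under both. The H2AFZ call with Telaglenestat was lost with all 28 libraries in 1 fit (-0.23, adjusted p = 0.0916). The HIST calls with Telaglenestat and Combination, HIST1H1C, HIST3H2A and HIST1H2AC, were not called after correction. The 3 comparisons share their Control tumors.

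**Figure D3:**
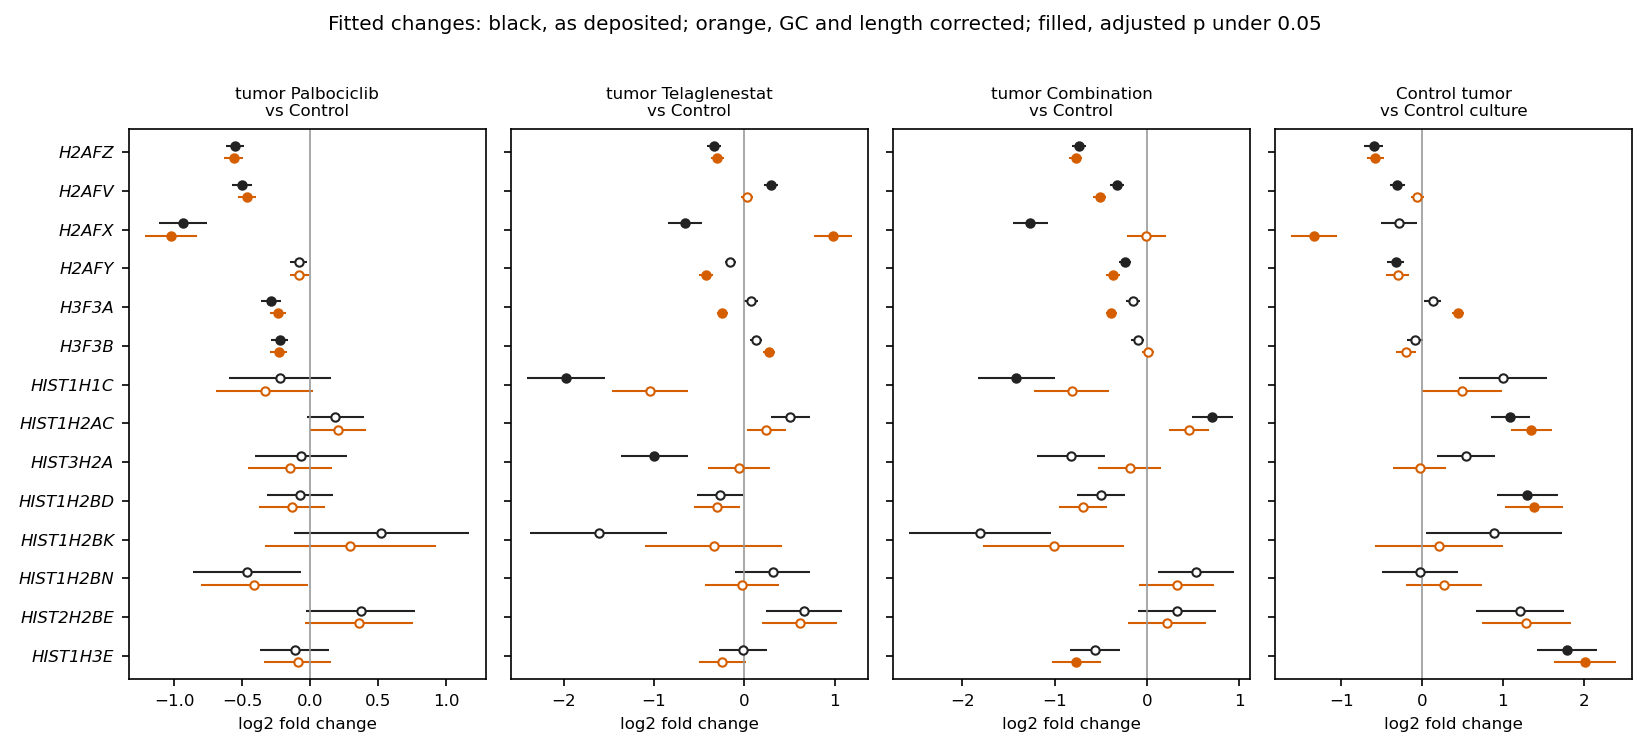
Fitted log2 changes with SE for 14 histone genes in 3 tumor comparisons and in Control tumors against Control cultures. Black points are the counts as deposited, orange points the fit corrected for gene GC content and length, and filled points have an adjusted p under 0.05. H2AFZ lies at about the same place in both fits, while H2AFX moves across 0 with Telaglenestat.

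Untreated tumors and untreated cultures were compared in a fit of all 28 libraries, with CPM scaled over all of them. Of 18 histone genes tested, 3 were lower in Control tumors and 4 higher, where 45.9% of all 15466 genes differed, 22.8% lower and 23.1% higher. The lower ones were variants and the higher ones HIST genes. H2AFZ stood at 351, 405 and 362 CPM in the tumors and 576, 561 and 556 in the cultures (log2 difference -0.60 ± 0.12, adjusted p = 0.000181; corrected -0.58 ± 0.11, adjusted p = 6.35e-05). H2AFV stood at 146, 152 and 144 against 180, 186 and 181 (-0.31 ± 0.091, adjusted p = 0.0072), but the corrected difference was -0.061 ± 0.080 (adjusted p = 0.579). H2AFY stood at 198, 210 and 197 against 268, 238 and 252 (-0.33 ± 0.10, adjusted p = 0.0115), and this was not called without Control culture 1 (-0.28, adjusted p = 0.055) or after correction (-0.30 ± 0.14, adjusted p = 0.0827).

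Of the HIST genes, HIST1H3E stood at 5.43, 5.62 and 5.65 CPM in Control tumors against 1.27, 1.41 and 2.13 in Control cultures (1.79 ± 0.37, adjusted p = 0.000242). HIST1H2AC stood at 10.3, 8.43 and 10.3 against 4.82, 3.96 and 4.84 (1.09 ± 0.25, adjusted p = 0.00066), and HIST1H2BD at 4.49, 5.41 and 4.93 against 1.14, 2.04 and 2.84 (1.30 ± 0.38, adjusted p = 0.00606). In each of the 3 the tumors lay above the cultures, and each remained called after correction, with HIST1H3E at 2.02 ± 0.38 (adjusted p = 9.56e-05). HIST2H4A was also called, at 53 counts over the 3 tumors and 1 count over the 3 cultures, but its copy HIST2H4B was at -1.18 ± 1.28 without a call, and the summed pair differed by 1.32 ± 0.52 (adjusted p = 0.0373). No culture reached the 10 counts of the filter for HIST2H4A, which was kept through tumors alone. Its higher level in tumors is therefore no separate result. Its call was lost without Control culture 1 (4.57, adjusted p = 0.0686) or 3 (4.62, adjusted p = 0.0624). H2AFX, at 20.4, 19.99 and 22.5 CPM against 25.0, 30.0 and 21.3, was not called (-0.28 ± 0.22, adjusted p = 0.312) except after correction (-1.33 ± 0.28, adjusted p = 0.00037), and H3F3A was called higher in tumors only there (0.44 ± 0.075, adjusted p = 2.46e-05; as deposited 0.13 ± 0.10, adjusted p = 0.306). The Control tumors also held more stromal marker counts than the Control cultures, and more non-tailed RNA (56.5 to 61.9 against 12.7 to 30.6 CPM). None of the 4 non-tailed RNAs tested was called. The part of stromal markers and non-tailed RNA in the HIST differences was not tested.

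In the cultures, no histone gene was called for any former treatment by edgeR. Of the 14 tested, none had an unadjusted p under 0.05 for Palbociclib or Combination against Control, and 1, H2AFX, did for Telaglenestat, where 0 of 13985 genes were called for Palbociclib, 0 for Telaglenestat and 1 (0.00715%) for Combination. DESeq2 also called no histone gene against Control, where it called 0, 3 (0.0215%) and 3 genes in all. Between Combination and each single agent edgeR called none either (0% of all genes in both), whereas DESeq2, at 0.894% of all genes, called H2AFX lower with Combination than with Telaglenestat (-0.93, adjusted p = 0.039; edgeR -0.91 ± 0.23, adjusted p = 0.276). H2AFZ stood at 558, 540 and 533 CPM in Control cultures, 598, 610 and 555 after Palbociclib, 487, 641 and 836 after Telaglenestat and 518, 553 and 569 after Combination. H2AFX stood at 24.2, 28.9 and 20.5, then 21.5, 21.5 and 24.3, then 21.7, 35.3 and 47.5, then 17.0, 19.6 and 18.8. The 3 Telaglenestat cultures spread most for both genes, with culture 3 the highest, and the Combination cultures were the lowest for H2AFX. The GC slope was 0.418 in Telaglenestat culture 2 but -0.034 and -0.019 in cultures 1 and 3. In Control culture 2 it was -0.069, against 0.147 and 0.178 in Control cultures 1 and 3. With cultures of a group this unlike, the absence of calls does not show that the levels were equal.

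Where the treatment effect in tumors was set against that in the cultures in 1 fit, the Palbociclib change of H2AFZ and H2AFV was lower in tumors than in cultures. The differences were -0.67 ± 0.16 (adjusted p = 0.0277) and -0.56 ± 0.12 (adjusted p = 0.0162) on the log2 scale. Neither gene was called in the Palbociclib cultures, where H2AFZ overlapped Control and every H2AFV value lay above Control. The called differences were 2 of the 18 tested, against 1.38% of all genes. After the GC and length correction H2AFZ remained called (-0.67 ± 0.14, adjusted p = 0.0141) and H2AFV did not (-0.42 ± 0.11, adjusted p = 0.05004), where 1.14% of all genes were called. With the correction and the replicate block neither was called (adjusted p = 0.0562 and 0.0900), and with the block alone H2AFZ was not (adjusted p = 0.0947). With Telaglenestat the difference was called for H2AFX (-1.06 ± 0.31, adjusted p = 0.00912) and H2AFZ (-0.51 ± 0.16, adjusted p = 0.0167), against 34.1% of all genes, and after correction, with 4.8% of all genes called, neither remained so, H2AFX at 0.70 ± 0.39 (adjusted p = 0.333) and H2AFZ at -0.48 ± 0.14 (adjusted p = 0.0515), while H3F3A was called (-0.43 ± 0.10, adjusted p = 0.0134). With Combination it was called for H2AFZ (-0.64 ± 0.16, adjusted p = 0.0331), against 2.91% of all genes, and after correction, with 2.5% of all genes called, for H2AFZ (-0.76 ± 0.14, adjusted p = 0.00437) and H2AFV (-0.49 ± 0.11, adjusted p = 0.0129). These calls were fragile. The H2AFZ call was lost in 7 of 14 fits without 1 library for Palbociclib (Control tumor 2 or 3, Palbociclib tumor 4, Control culture 1 or 3, Palbociclib culture 1 or 2, -0.61 to -0.69, adjusted p = 0.0545 to 0.102), without Control tumor 2 (-0.45, adjusted p = 0.0527) or Telaglenestat culture 3 (-0.30, adjusted p = 0.0784) for Telaglenestat, and in 10 of 13 fits for Combination (any Control tumor, Combination tumor 3, or any Control or Combination culture, -0.58 to -0.68, adjusted p = 0.0527 to 0.0873). The H2AFV call with Palbociclib was lost without Control tumor 2 (-0.53, adjusted p = 0.0605) or Control culture 1 (-0.55, adjusted p = 0.0572) or 3 (-0.55, adjusted p = 0.0593).

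Genes that work with histones were read from lists drawn up by their known roles. Their counts stand against the share of all genes called, which was 3.6% downward and 2.55% upward in Palbociclib tumors, 28.5% and 22.6% in Telaglenestat tumors and 26.9% and 17.6% in Combination tumors. Of 25 genes of S phase and DNA replication, 17 fell and none rose in Palbociclib tumors (median log2 change -0.58, against 0.00066 over all genes), 11 fell and 6 rose with Telaglenestat, and 20 fell and none rose with Combination (median -0.79). With Telaglenestat 17 of 25 were called, against 51.1% of all genes. After the GC and length correction these counts were 19 and 0, 2 and 1, and 21 and 1, against 7.72%, 14.7% and 26.3% of all genes called. With Combination, MCM7 fell by 1.63 ± 0.15 on the log2 scale (adjusted p = 7.82e-08), MCM5 by 1.93 ± 0.18 (adjusted p = 9.05e-08) and MCM2 by 1.28 ± 0.12 (adjusted p = 9.71e-08), all 3 subunits of the replicative helicase, and FEN1, which trims Okazaki fragments, by 1.00 ± 0.12. In Control tumors 19 of the 25 were lower than in Control cultures and none was higher, where 22.8% of all genes were lower and 23.1% higher.

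Of 15 genes, SLBP shared with the S phase list, for the transcription and end processing of HIST mRNA, 3 fell with Palbociclib, 5 fell and 8 rose with Telaglenestat, and 6 fell and 1 rose with Combination, and after correction 3, then 3 and 1, then 6 and 0. The 7 of 15 called with Combination as deposited are about the share of all genes called, 44.5%, and the 13 of 15 with Telaglenestat stand against 51.1%. SRRT, which links the cap-binding complex to end processing, fell with Combination by 1.37 ± 0.10 (adjusted p = 1.95e-08), SYMPK, a scaffold of the cleavage complex, by 1.59 ± 0.17, CDK2, which phosphorylates the HIST activator NPAT, by 0.59 ± 0.093 and HINFP, an activator of H4 genes, by 0.74 ± 0.13. All 4 kept their call with Combination after correction. Of 7 tested genes for HIST mRNA decay, none changed with Palbociclib, 1 fell and 5 rose with Telaglenestat and 1 fell and 1 rose with Combination, which after correction became 2 and 1. With so few genes, 0 of 7 against 6.15% of all genes with Palbociclib and 2 of 7 against 44.5% with Combination are not a result about decay genes. UPF1, a helicase that starts this decay, fell with Telaglenestat by 1.33 ± 0.12 (adjusted p = 3.93e-08), while the exonucleases XRN1 (0.52 ± 0.089) and ERI1 (0.52 ± 0.096) and the decapping enzyme DCP2 (0.46 ± 0.084) rose, and none of the 7 was called with Telaglenestat after correction.

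Of 21 histone chaperones and import factors, 8 fell with Palbociclib, 8 fell and 9 rose with Telaglenestat, and 13 fell and 2 rose with Combination, and after correction 9, then 2 and 1, then 7 and 0. The 8 of 21 lower with Palbociclib stand against 3.6% of all genes, the 8 lower and 9 higher with Telaglenestat against 28.5% and 22.6%, and the 13 lower with Combination against 26.9%. HJURP, the chaperone of the centromeric H3, fell with Palbociclib (-1.02 ± 0.13, adjusted p = 3.61e-05) and with Combination (-1.18 ± 0.14), and its cargo CENPA fell with both as well (-1.03 ± 0.25 and -0.97 ± 0.27). With Combination CHAF1B, of the replication-coupled assembly factor CAF-1, fell by 0.94 ± 0.12, IPO4, which imports H3 and H4, by 2.34 ± 0.27, and CABIN1, of the H3.3 chaperone complex HIRA, by 1.19 ± 0.14, the last without a call after correction. Of 6 histone genes whose symbols fall outside the selection, 2 fell with Palbociclib, 2 with Telaglenestat and 4 with Combination, and none rose, and after correction 3 fell, then 1 rose, then 4 fell. The 2 of 6 lower with Telaglenestat are close to the 28.5% of all genes, and the other counts stand against 3.6% with Palbociclib and 26.9% with Combination. H1F0, the replacement linker histone H1.0, was among them (-0.52 ± 0.063 with Palbociclib and -0.76 ± 0.067 with Combination), as were H1FX, another linker variant (-1.63 ± 0.27 with Telaglenestat and -2.42 ± 0.28 with Combination), and H2AFY2, for macroH2A2 (-0.64 ± 0.13 and -0.68 ± 0.13). Neither H1FX nor H2AFY2 was called lower with Telaglenestat after correction. Of 7 HIST genes usually named for polyadenylated mRNA, 5 could be tested, and these were HIST1H1C, HIST1H2AC, HIST1H2BD, HIST1H2BK and HIST2H2BE. None changed with Palbociclib, 1 fell with Telaglenestat, 1 fell and 1 rose with Combination and 2 were higher in Control tumors than in Control cultures. These counts were at or below the shares of all genes called in either direction, 6.15%, 51.1%, 44.5% and 45.9%. No gene of the S phase, processing, decay, chaperone or outside lists was called in the cultures against Control. Of all 13985 genes tested there, 0 were called for Palbociclib, 0 for Telaglenestat and 1 for Combination, so this is not a result about the lists.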

How the data were processed

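RNA was isolated with an RNeasy kit with DNase, poly(A) RNA was captured on poly-T beads, and libraries (NEBNext Ultra) were read as 60 bases from 1 end. The authors deposited whole-number counts per gene for 28 libraries, and the submitters' processing notes name STAR, CASAVA 1.8 and hg38. The counting annotation, strand setting and treatment of reads with several matches are not given in the sources used here. Gene lengths and GC content came from GENCODE 29, to which 57940 gene IDs matched, and promoters from RefSeq.

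Counts were fitted with edgeR 4.0.16 (R 4.3.3; filterByExpr with a minimum count of 10, TMM scaling, quasi-likelihood test, Benjamini-Hochberg adjustment over all genes tested, calls at an adjusted p under 0.05). Tumors and cultures were fitted apart, and all 28 libraries together where tumors were set against cultures. CPM was scaled in the same sets of libraries. Errors are SD over libraries or SE of a fitted change. For edgeR this SE was derived from the test, as the absolute log2 change divided by the square root of its F value. The correction regressed each library's log2 deviations on gene GC content and length (splines with 4 degrees of freedom, MASS) and entered the result as offsets. DESeq2 1.42.0, other scalings and filters, a replicate block and leaving out each library were alternatives, and summing identical gene copies was added after seeing the data. The fits were tested on simulated data.

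The members and lists were chosen with earlier results of these data known. Genes named are the 6 variants, the 3 highest HIST genes of each class, the 2 called members of lowest adjusted p per direction in each tumor comparison and in Control tumors against cultures, and up to 4 called genes of lowest adjusted p from each companion list. HIST1H2BK, HIST2H2AA3 and genes near the count filter are also given so that each member is accounted for. The labels number samples within groups without saying that each came from its own animal, so p-values measure the spread between these samples. Same-numbered samples did not deviate together, so the numbers were not taken as pairs.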

Additional observations from a re-analysis of the deposited data

Results flagged for a closer look

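Of 69 groups of 4 or 5 tumors examined, 2 held a library far from the others, and chance alone marks about 1 in 20. HIST1H3E stood at 5.36 CPM in Combination tumor 2, while the other 3 lay between 3.54 and 3.64. The summed RNAs without a poly(A) tail reached 249.7 unscaled CPM in Palbociclib tumor 1, while the other 4 lay between 30.0 and 82.1, and the histone values of that tumor are given with those of its group.

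For 5 effects the change in tumors differed from the change in cultures by edgeR's test of the difference. These were H2AFZ with Palbociclib (-0.67 ± 0.16 on the log2 scale, SE, adjusted p = 0.0277), with Telaglenestat (-0.51 ± 0.16, adjusted p = 0.0167) and with Combination (-0.64 ± 0.16, adjusted p = 0.0331), H2AFV with Palbociclib (-0.56 ± 0.12, adjusted p = 0.0162) and H2AFX with Telaglenestat (-1.06 ± 0.31, adjusted p = 0.00912). The 3 H2AFZ values share the Control libraries. The sign of the H2AFX value turned with the GC and length correction.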

How the results depend on the processing

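The number of histone genes called moved as follows. For Palbociclib against Control (5), it was 3 with the replicate block, with the block and the GC and length correction together, with all 28 libraries in 1 fit and with the compared groups only. For Combination against Palbociclib (7), it was 4 without the filter on low counts, with the block, with the correction and with the compared groups only, and 3 with block and correction. For Combination against Telaglenestat (5), it was 2 with all 28 libraries in 1 fit. In cultures, Combination against Telaglenestat (0) gave 1 with DESeq2, without the filter and with all 28 libraries. For the difference between tumors and cultures, Palbociclib (2) gave 1 with the block, 1 with the correction and 0 with both, Telaglenestat (2) gave 1 with the correction and 1 with both, and Combination (1) gave 0, 2 and 2. The other counts stayed within 1.5 times under these settings.

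Leaving out 1 library gave 3 to 5 for Palbociclib, 4 to 7 for Telaglenestat and 5 to 6 for Combination against Control, 3 to 9 for Combination against Palbociclib, 3 to 5 against Telaglenestat, 6 to 8 for Control tumors against cultures, 0 to 2, 1 to 4 and 0 to 1 for the Palbociclib, Telaglenestat and Combination differences between tumors and cultures, and 0 to 2 for cultures, Combination against Telaglenestat. The replicate block rests on numbers that do not pair the samples: correlations of same-numbered deviations ran from -0.128 to 0.0896 in tumors and from -0.423 to 0.140 in cultures, and 6 of 16 and 1 of 12 libraries correlated best with their own number.

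Signs turned with the correction, and with correction and replicate block, for H2AFX with Telaglenestat (0.98, 1.06), in Combination against Palbociclib (1.02, 0.92) and in the Telaglenestat difference (0.70, 0.79), for H2AFV in Combination against Palbociclib (-0.049, -0.023), H3F3A (-0.24, -0.22) and HIST1H2BN (-0.030, -0.033) with Telaglenestat, H3F3B with Combination (0.015, 0.032) and HIST3H2A in tumors against cultures (-0.030, -0.037). H2AFX with Combination turned with both together (0.059), and H3F3B with Combination with all 28 libraries (0.0010). In Control tumors against cultures, H3F3B turned without the filter (0.028), and HIST1H2BN with DESeq2 size factors (0.0046), no filter (0.087), the block (0.010), the correction (0.28) and both (0.31). HIST1H3E with Telaglenestat turned with DESeq2 (0.026), its size factors (0.026), no filter (0.037) and all 28 libraries (0.092), and HIST2H4A with copies summed (0.098 with Palbociclib, 0.0091 with Telaglenestat). Leaving out 1 library turned the sign of uncalled values, which then ranged as follows: HIST1H2AG from -0.0084 to 0.60 and HIST1H2BN from -0.45 to 0.60 in tumors against cultures, HIST1H3E from -0.24 to 0.034 with Palbociclib and from -0.12 to 0.075 with Telaglenestat, HIST2H4B from -0.17 to 3.99 with Combination and HIST3H2A from -0.26 to 0.15 with Palbociclib. Beyond what the alternatives' construction shows, the cause was not tested. All 77 HIST genes together hold 158 to 464 counts a library, which limits what can be called.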
